A study of Mus musculus with 6 samples.

Results

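The very wide regions of H3K4me1 in the mouse whisker pad were the 313 stretches of chromosomes 1 to 19 that spanned 15 kb or more after the peaks of 3 replicates were merged. They were chosen by their length. Peaks that overlapped by at least 1 bp were merged, and a region was kept if it held a peak in all 3 replicates. A single region that met the length rule at the start of chromosome 9, below 3.1 Mb and over Gm-numbered predicted genes, was left out. The 313 regions were 3.54% of the 8839 regions with a peak in all 3 replicates, and 19054 merged regions were found in all. They held 6.53 Mb, or 12% of the bases of the shared regions. Another 4 regions of that length lay outside chromosomes 1 to 19 and were not described. Of the merged regions of 15 kb or more on these chromosomes, 2 lacked a peak in at least 1 replicate.

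The whisker pads came from wild-type mouse embryos of the B6/J2 strain at embryonic day 12, and were microdissected and digested to single cells. The mark was mapped by CUT&Tag with an antibody to H3K4me1. In this assay, an antibody brings a transposase to the marked chromatin and the fragments it releases are sequenced. The series holds 6 samples, 3 with this antibody and 3 with IgG, and the IgG samples were not analysed here. For replicates 2 and 3 the source name reads adult kidney, although their titles read whisker pad, and the titles were followed.

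H3K4me1 stands for monomethylation of lysine 4 on histone H3. It is known from enhancers, both active and poised, and it often flanks promoters, where the trimethylated form takes its place at the start site itself. Long stretches of the mark are known from genes of cell identity and developmental signalling, where several enhancers lie close together. The whole whisker pad contains mesenchyme, surface ectoderm, nerve, vessels and early muscle, so a region in these data can come from any of these cells. A smaller number of marked cells and a lower mark per cell cannot be told apart.

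The DNA at the highest pileup is shown for 4 regions in which the 3 replicates had their maximum within 150 bp of each other. The pileup is the number of fragments stacked over a base, and it is not scaled to depth. These 4 had the highest mean percentile of maximum pileup among such regions on the chromosomes from which sequence was drawn. The windows are 200 bases of the plus strand of GRCm38, and capitals mark the span from the first to the last of the 3 maxima. They are chr12:79842345-79842544, 271 kb from the nearest start site, that of Zfp36l1. The others are chr12:33967501-33967700, 9.93 kb from the start of Twist1, chr8:120425764-120425963 inside Gse1, and chr19:7139071-7139270 inside Macrod1. None of the 4 windows touched a protein-coding exon.
Zfp36l1 window: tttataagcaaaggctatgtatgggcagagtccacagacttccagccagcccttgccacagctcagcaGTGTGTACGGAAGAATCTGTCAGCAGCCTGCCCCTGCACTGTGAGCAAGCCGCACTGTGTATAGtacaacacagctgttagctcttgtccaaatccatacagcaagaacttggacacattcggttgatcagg
Twist1 window: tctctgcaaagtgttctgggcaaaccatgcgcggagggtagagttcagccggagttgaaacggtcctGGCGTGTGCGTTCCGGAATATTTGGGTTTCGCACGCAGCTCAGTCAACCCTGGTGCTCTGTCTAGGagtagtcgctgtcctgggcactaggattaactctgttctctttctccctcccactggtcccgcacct
Gse1 window: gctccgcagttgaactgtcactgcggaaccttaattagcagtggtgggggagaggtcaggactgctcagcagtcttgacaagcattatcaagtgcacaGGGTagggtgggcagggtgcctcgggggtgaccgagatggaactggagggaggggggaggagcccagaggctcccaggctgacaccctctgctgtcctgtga
Macrod1 window: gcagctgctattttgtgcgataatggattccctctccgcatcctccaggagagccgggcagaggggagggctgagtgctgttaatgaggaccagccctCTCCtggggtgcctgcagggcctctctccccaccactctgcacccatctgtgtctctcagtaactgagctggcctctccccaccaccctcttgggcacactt
The 3 maxima spanned 64 bases in the Zfp36l1 window, 66 in the Twist1 window, and 4 in each of the windows in Gse1 and Macrod1. Of the motifs searched, the Gse1 window alone held a match, to the homeodomain motif TAATTA, at base 32.

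Start sites in the very wide regions sometimes lay in a break, that is, a stretch without a peak between peaks of the same replicate. The bases before the start are shown for Ebf3 and Six2, whose start sites lay in a break in 2 replicates. Ebf3 encodes an early B-cell factor of mesenchyme and neurons, and Six2 a homeodomain factor of facial and kidney mesenchyme. Both lie on the minus strand. The RefSeq promoter sequences of GRCm38.p6 are chr7:137314446-137314695 for Ebf3 and chr17:85688255-85688504 for Six2, each the 250 bases before the RefSeq start. Capitals mark each CG pair.
Ebf3 promoter: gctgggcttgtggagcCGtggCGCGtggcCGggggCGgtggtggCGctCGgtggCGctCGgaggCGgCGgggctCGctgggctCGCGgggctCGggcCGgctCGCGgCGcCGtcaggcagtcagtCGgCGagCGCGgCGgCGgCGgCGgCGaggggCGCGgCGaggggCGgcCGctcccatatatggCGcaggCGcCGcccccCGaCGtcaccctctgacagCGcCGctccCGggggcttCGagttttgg
Six2 promoter: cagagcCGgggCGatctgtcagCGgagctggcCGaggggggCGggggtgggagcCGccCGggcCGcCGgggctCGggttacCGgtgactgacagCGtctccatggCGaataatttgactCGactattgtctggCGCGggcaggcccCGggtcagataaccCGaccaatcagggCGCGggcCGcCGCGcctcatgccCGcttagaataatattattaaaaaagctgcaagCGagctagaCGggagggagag
There were 43 CG pairs in the Ebf3 promoter and 26 in that of Six2. Of 31396 RefSeq promoters on the same chromosomes, with a median of 6 CG pairs, 0.733% held at least as many as Ebf3 and 9.89% at least as many as Six2.

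The regions ranged from 15005 to 55185 bp with a median of 18679 bp. Among them, 119 reached 20 kb, 31 reached 30 kb and 7 reached 40 kb. Just inside the threshold were regions in Rai1 (15005 bp), Arhgef17 (15008 bp) and Farp1 (15042 bp), and just outside were those in Cyp26b1 (14991 bp), near Haao (14969 bp) and in Nrp2 (14958 bp). The percentiles of maximum pileup of the former ran from 71.1 to 97.7, and those of the latter from 46.0 to 97.1. Heights on both sides of the threshold overlapped.

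A merged region need not be 1 peak in any replicate. Of the 313, 42.2% were unbroken in replicate 1, 63.9% in replicate 2 and 41.5% in replicate 3, with a mean of 49.2 ± 12.7% (SD, n = 3). With 3 replicates, the smallest two-sided exact permutation p of a paired difference is 0.25, above the threshold of 0.05. Values are therefore given with their spread and without a test. Peaks covered 90.2, 92.3 and 78.8% of the merged bases in replicates 1, 2 and 3 (87.1 ± 7.27%, SD, n = 3). Replicate 3 covered the least in 204 of the 313 regions. In 53 regions each replicate had 1 peak, and in 23 of them that peak was 15 kb or longer in every replicate. At the other end, 55 regions had no peak of 15 kb in any replicate and owed their length to the merging. Taking each replicate by itself, 135 regions had 15 kb or more of covered bases in every replicate.

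The widest region, 55.2 kb at chr8:120254969-120310153, lay inside Gse1, which encodes a coiled-coil protein of histone deacetylase and demethylase complexes. It was 1 peak in replicate 1, 2 peaks in replicate 2 and 4 peaks in replicate 3, which covered 98.2, 96.9 and 65.6% of it. The longest peak was 54166, 49922 and 13009 bp. In replicate 3 the peaks ran from 5.18 to 45.05 kb of the region, and both ends had no peak.

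The next widest, 54.7 kb at chr12:107946975-108001688, covered 58.7% of the body of Bcl11b, a zinc finger factor known from T cells, teeth and skin. Each replicate had 2 peaks there, which covered 99.2, 97.9 and 97.1% of it. It was the most evenly covered of the 3 widest regions, and its edge stopped 1.91 kb short of the Bcl11b start. A second region of 20.4 kb lay in the same gene.

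Alx4, a homeobox factor of craniofacial and limb mesenchyme, had a region of 51.9 kb at chr2:93633309-93685235 that covered its whole body of 39.0 kb, with the start site. Peaks covered 92.6, 90.9 and 68.0% of it in replicates 1, 2 and 3, as 3, 1 and 4 peaks. Without replicate 2 the region was 33.9 kb, shorter than the gene. Another region of 17.2 kb lay between genes, 16.3 kb from the Alx4 start.

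Nfix, a nuclear factor I gene, had 50.7 kb at chr8:84703612-84754275, with 4, 1 and 6 peaks. Without replicate 2 in the merging it was 24.9 kb. This region also touched Lyl1 and covered the start of the predicted gene G430095P16Rik. Its maximum pileup was 434, 493 and 231 in replicates 1, 2 and 3, at percentiles 99.7, 99.9 and 99.7 of the shared regions of each replicate. All 3 maxima lay 55.4 to 58.1 kb after the Nfix start.

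In Notch2, the receptor gene, a region of 47.5 kb held 5, 2 and 3 peaks with cover of 90.7, 95.6 and 87.3%. It was 22.7 kb without replicate 2 and 29.3 kb without replicate 3. In Trio, which encodes a guanine nucleotide exchange factor, 45.1 kb were covered to 96.3, 98.2 and 96.2%, and the 3 maxima lay 243 kb after the start. The remaining regions of the 10 widest lay in Capzb (44.4 kb), an actin capping subunit, in 2010111I01Rik with its neighbour Fancc (38.3 kb), again in Gse1 (37.1 kb) and in Ssbp3 (36.8 kb), which encodes a partner of LIM-domain complexes. Capzb's region was 27.0 kb without replicate 2, and that of Ssbp3 22.7 kb without replicate 1. Replicate 3 covered the least of the region in all 10 of the widest, and the gap between the highest and the lowest replicate ran from 2.02 percentage points in Trio to 35.9 in Ssbp3.

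**Figure D1:**
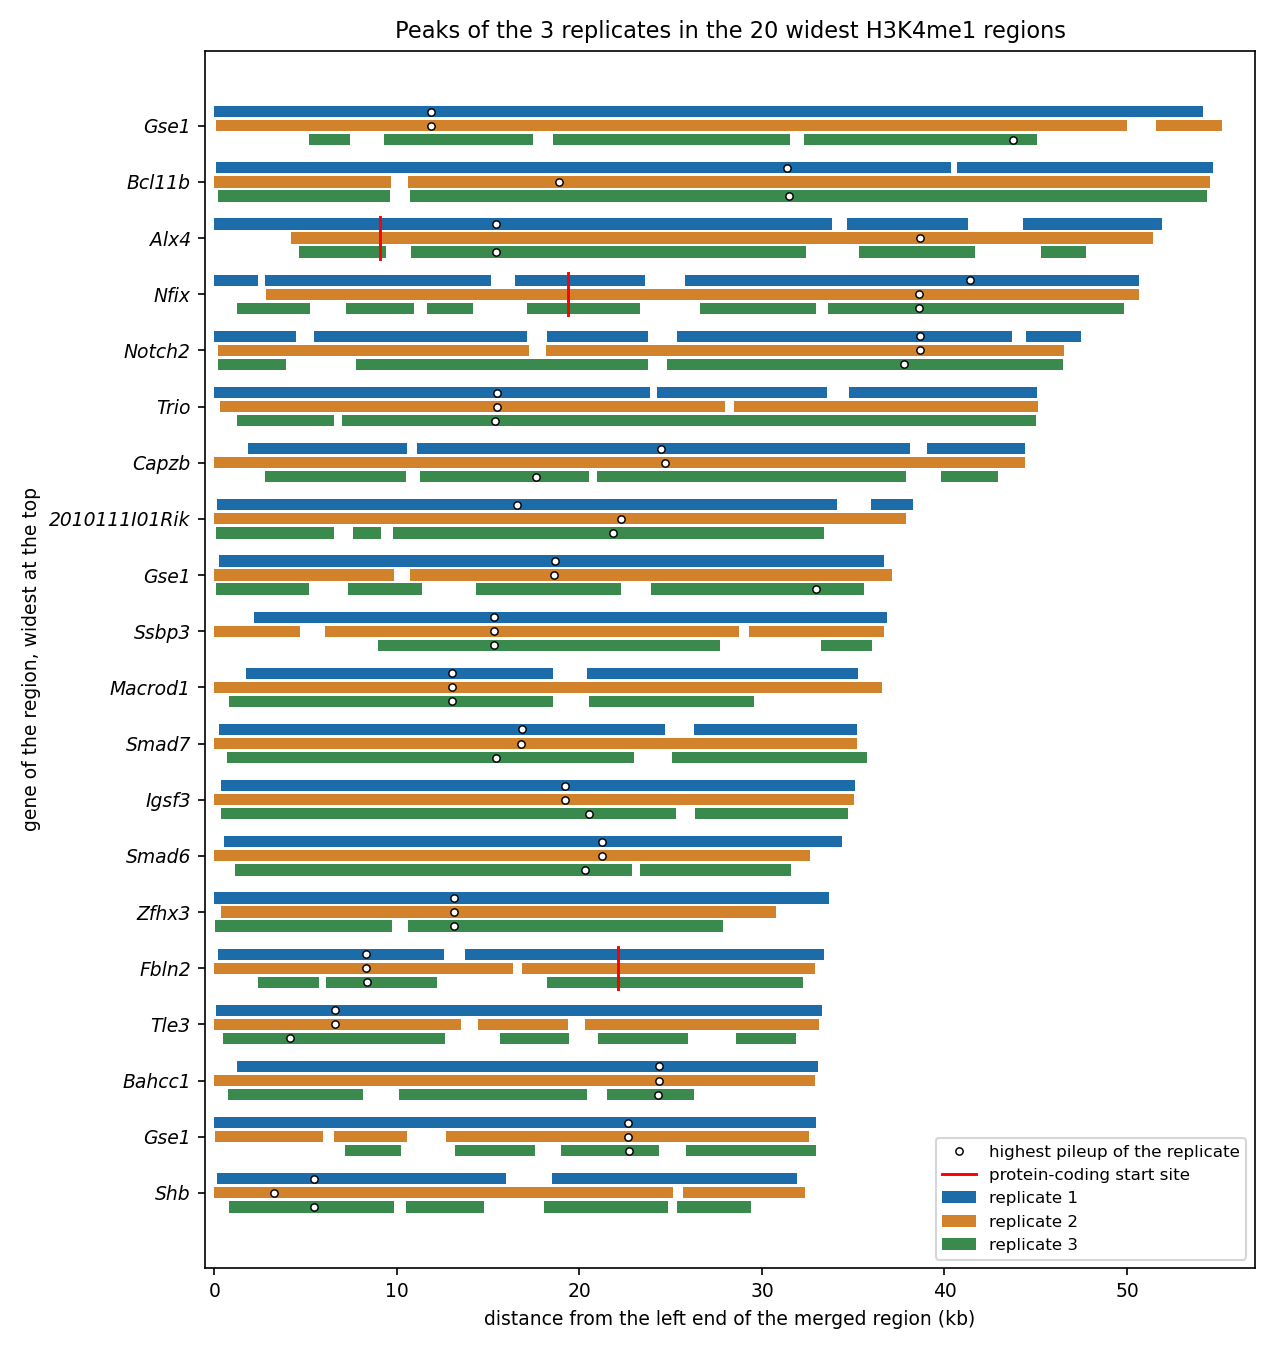
Peaks of the 3 replicates in the 20 widest regions, drawn in kb from the left end of each merged region, with the highest pileup of each replicate as an open circle and protein-coding start sites as red lines. The bars of replicate 3 are broken in all 20, and start sites fall inside the regions of Alx4, Nfix (that of G430095P16Rik) and Fbln2.

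The regions were tall as well as long, although the length rule and the signal come from the same peaks and both are described without a test. For each replicate, the maximum pileup of every shared region was ranked, and the median percentile of the very wide regions was 92.5, 93.1 and 90.9 (92.1 ± 1.14, SD, n = 3). It was 80.5 ± 1.98 for the 699 regions of 10 to 15 kb, 58.4 ± 0.574 for the 3409 of 5 to 10 kb and 36.6 ± 0.409 for the 4418 under 5 kb. A longer stretch has more places at which to reach a high pileup, so the mean pileup over the covered bases was ranked too. By this measure the very wide regions had a median percentile of 84.6 ± 2.96 against 72.2 ± 1.32 in those of 10 to 15 kb (SD, n = 3). The very wide regions carried 15, 15.8 and 12.5% of the signal of the whole peak lists, a mean of 14.5 ± 1.71% (SD, n = 3).

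Heights varied among the very wide regions. In 132 of them the maximum stood above percentile 90 in all 3 replicates, and in 8 (2.56%) it was below percentile 50 in all 3. The 5 with the highest mean percentile were those in Nfix, in Igsf3, near Zfp36l1, near Twist1 and in Zmynd8. In Igsf3, which encodes an immunoglobulin-domain membrane protein, the maximum pileup was 464, 492 and 193 in replicates 1, 2 and 3 (percentiles 99.7, 99.9 and 99.5). In Zmynd8, a chromatin reader, it was 382, 285 and 209 (percentiles 99.6, 99.5 and 99.6). These places were near the top of every list.

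The region near Zfp36l1, the gene of an RNA-binding protein that speeds mRNA decay, was short for this set at 15.9 kb and lay 260 kb from the gene. Its maximum pileup was 369, 294 and 316, and each replicate had 1 peak there. That near Twist1, a basic helix-loop-helix factor of cranial neural crest mesenchyme, began 2.92 kb from the start site and reached 24.2 kb. Its maximum pileup was 323, 311 and 250. The 3 maxima lay 9.90, 9.96 and 9.96 kb after the Twist1 start, beyond the end of the gene, whose body is 2.16 kb.

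The 5 with the lowest mean percentile were regions in Cdc42ep4, Nr2f1, Gata2, Lef1 and Sdc1. In Nr2f1, an orphan nuclear receptor of craniofacial tissue, the maximum pileup was 36, 38 and 39 at percentiles 26.9, 19.5 and 39.3, yet peaks covered 98.1, 91.7 and 85.6% of its 15.7 kb. In Sdc1, which encodes a heparan sulfate proteoglycan, the percentiles were 28.8, 36.2 and 46.0 with cover of 91.9, 96.1 and 89.8%. These were low and even stretches of the mark.

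The others of this group had low cover, in replicate 3 alone for Gata2 and Cdc42ep4 and in every replicate for Lef1. In Lef1, the Wnt-responsive factor, peaks covered 32.7, 52.8 and 51.2% of a merged region of 15.5 kb, and the longest peak was 3251, 8188 and 7940 bp. In Gata2 they covered 84.2, 94.1 and 9.90% of 19.3 kb, and in Cdc42ep4, an effector of Cdc42, they covered 84.1, 100 and 35.3% of 16.2 kb. Gata2 encodes a factor of blood, vessel and neural tissue. It had the most unequal cover of the 313, a range of 84.2 percentage points, followed by the regions in Cd82 (79.1), Nectin1 (76.1) and Zfhx4 (75.6) and near Ackr3 (65.1). In Zfhx4, a zinc finger and homeodomain factor, replicate 3 had the most, with 100% of the region against 61.3 and 24.4% in replicates 1 and 2. In Gata2, Cd82, Nectin1 and Ackr3 it had the least. In 31 regions at least 1 replicate covered under 50% of the bases, and replicate 3 was the lowest in 23 of these.

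A peak of 15 kb or more was present in every replicate in 51 regions, such as that of Bcl11b, with longest peaks of 40268, 43931 and 43668 bp. In 23 of the 51 it was the only peak of each replicate. Ordered by the shortest of the 3 peaks, the leading 10 of these 23 were in Boc, Tenm4, Rara, Prrx2, Ahdc1, Bcl11a, Ngfr, Pdgfrb, Ddc and Bcl9l. In Boc, a Hedgehog co-receptor, the peak was 30906, 31030 and 31445 bp long in replicates 1, 2 and 3. Its maxima lay 16.3, 16.3 and 16.2 kb after the start, and its nearer edge 1.43 kb from it. In Tenm4, an adhesion protein of neurons and mesenchyme, the peak was 30870, 30668 and 31476 bp, in a gene of 740 kb. These lengths differed by less than 1 kb between replicates.

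Peak lengths in the rest of the 10 follow, and no tissue is read from these 10 genes as a group. Ahdc1 had peaks of 21691, 23884 and 20618 bp in replicates 1, 2 and 3. Ddc had 19682, 20793 and 19748 bp, and Bcl9l had 19196, 19980 and 18769 bp. Prrx2, a homeobox factor of facial mesenchyme, had peaks of 21630, 22538 and 21381 bp. Pdgfrb, the receptor of perivascular and mesenchymal cells, had peaks of 21883, 22204 and 20267 bp that reached over its start site. Ngfr, the low-affinity neurotrophin receptor, had peaks of 22559, 22676 and 20270 bp over its whole body of 18.9 kb. Rara, the retinoic acid receptor alpha, had 27407, 24907 and 25163 bp, and Bcl11a, the paralogue of Bcl11b, had 22420, 20547 and 22148 bp. Both Bcl11 genes therefore held a very wide region, and that of Bcl11a ended 3.34 kb from its start.

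**Figure D2:**
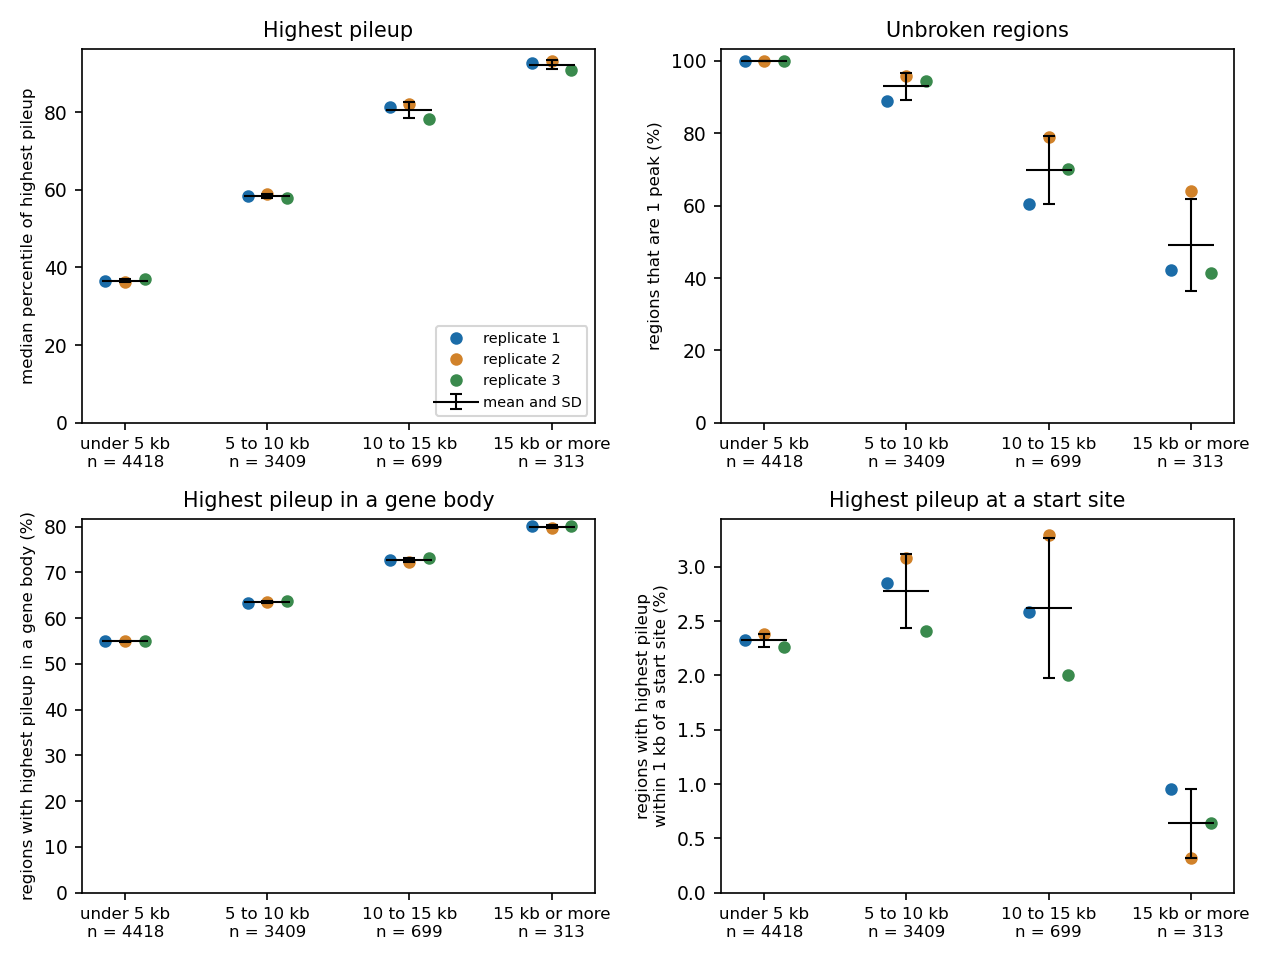
Regions shared by the 3 replicates by merged length, with 1 point per replicate and the mean and SD in black. In the very wide regions the median percentile of the highest pileup was 92.1, the share that are 1 peak was 49.2%, and the highest pileup lay in a gene body in 80.0% and within 1 kb of a start site in 0.639%. The start site is the 5′ end of the gene.

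Next, the regions were placed against genes. Protein-coding gene bodies were overlapped by 275 of the 313 regions, and 207 lay wholly within gene bodies. The highest pileup lay in a gene body in 80.0 ± 0.369% of regions, between genes in 19.4 ± 0.665%, and at most 1 kb from a protein-coding start in 0.639 ± 0.319% (SD, n = 3). The start was the 5′ end of the gene, so a maximum at a transcript start inside the gene counted as gene body. These shares were not counted with every transcript start. In regions of 10 to 15 kb these shares were 72.7 ± 0.429%, 24.7 ± 0.219% and 2.62 ± 0.645% (SD, n = 3). The share at start sites in the very wide regions was 0.958, 0.319 and 0.639% in replicates 1, 2 and 3. Exons of protein-coding genes held the maximum in 4.15, 5.43 and 2.24% of regions, and 4.80% of all bases of the regions were exonic. Gene bodies made up 82.7% of the bases of the very wide regions, about the share of maxima they held.

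Of 20807 protein-coding genes, 272 (1.31%) were overlapped by a very wide region. A single region on chromosome 18 accounted for 21 of them, the nested protocadherin gamma genes, which share their last exons. The genes overlapped were long, with a median body of 96.1 kb against 17.6 kb for all protein-coding genes. The share of genes overlapped was 0.314% for bodies under 20 kb, 0.859% for 20 to 50 kb, 2.69% for 50 to 100 kb, 5.50% for 100 to 200 kb and 5.46% for longer ones. By the gene sharing the most bases with it, the middle of the region lay in the first 25% of the gene in 31.3% of cases, in the next 25% in 29.1%, and in the following parts in 16.4 and 16.7%.

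Start sites were covered by few of the regions. A protein-coding start site, taken as the 5′ end of the gene, lay within 61 of the 313 (19.5%, exact 95% confidence interval 15.2 to 24.3). The interval treats regions as independent draws, although they were chosen by rule and 113 of them lay within 100 kb of another. In regions of 10 to 15, 5 to 10 and under 5 kb, the share was 17.5, 10.1 and 5.16%. Per Mb the very wide regions held 10.1 start sites, against 16.7, 16.4 and 14.5 in the shorter classes. The start sites of 66 genes (0.317% of all) were covered. Among these were the facial mesenchyme genes Alx4, Lef1, Lhx6, Msx1, Pax3 and Six2. When any annotated transcript start of a protein-coding gene was counted, the share of regions was 51.1%, and with the start sites of every annotated gene, noncoding ones included, it was 41.9%. With replicate 2 left out of the merging, the share covering a protein-coding start was 11.8%.

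Of the 252 regions that covered no protein-coding start, 56 (22.2%) had an edge within 5 kb of one. This share was 13.9, 10.3 and 9.81% in regions of 10 to 15, 5 to 10 and under 5 kb. The region in Igsf3 ended 0.416 kb from the start of the gene, that in Smad3 0.408 kb, that in Bcl9l 0.477 kb, that in Prrx1 0.810 kb and that in Tle3 1.37 kb. At the other extreme, 91 regions had no protein-coding start within 50 kb, and the median distance of the 252 was 29.2 kb.

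Within the regions, start sites were set against breaks in the peaks. Replicate 1 had 234 breaks with a median of 1045 bp, replicate 2 had 127 with 1126 bp and replicate 3 had 258 with 1547 bp. The breaks held 9, 2 and 13 protein-coding start sites, or 29.2, 10.2 and 25 per Mb (21.5 ± 10, SD, n = 3). The covered bases held 8.14, 10.5 and 6.61 per Mb (8.40 ± 1.94, SD, n = 3). Start sites were therefore denser in the breaks of replicates 1 and 3 and not in those of replicate 2. The counts are small, and with replicate 2 left out of the merging the mean was 9.02 per Mb in breaks and 6.15 in covered bases. Where a region needed 15 kb of covered bases in every replicate, it was 8.29 per Mb in breaks and 7.85 in covered bases. CpG islands, stretches rich in CG pairs that mark many promoters, made up 8.14, 1.15 and 10.3% of the break bases and 3.26, 3.76 and 2.33% of the covered bases.

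In all, 17 start sites lay in a break in at least 1 replicate. A break in all 3 was not possible, because every base of a merged region is under a peak in at least 1 replicate. Of the 17, 7 lay in a break in 2 replicates. The 7 were those of Ebf3, Fzd7, Gse1, Pax7, Six2, Tmem200b and Tns3. At Ebf3 the break was 5837 bp in replicate 1 and 6447 bp in replicate 3. At Pax7, a paired-box factor of muscle and neural crest progenitors, it was 4219 and 8377 bp in the same replicates. At Six2 it was 591 bp in replicate 2 and 4994 bp in replicate 3, and the latter spanned the whole promoter sequence printed above. Msx1, a homeobox factor of facial mesenchyme, had its start in a break of 2786 bp in replicate 3, and Lef1 had it in one of 7195 bp in replicate 1. Replicate 2 carried its peak across the start at Ebf3, Pax7, Msx1 and Lef1. At Ebf3 and Pax7 this followed from the merging, because replicates 1 and 3 both had a break there.

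Cover was followed outward from the start sites, which were all inside a merged region by choice. At the start itself, peaks covered 72.7, 95.5 and 51.5% of the 66 sites of very wide regions in replicates 1, 2 and 3, and 72.0, 90.4 and 53.6% of the 760 sites of narrower regions. At 5 kb into the gene the shares were 81.8, 84.8 and 69.7% in the former and 36.1, 37.4 and 30.1% in the latter, whose regions often end before that point. Cover at the start was thus lower than at 5 kb in replicates 1 and 3 of the very wide regions and higher in replicate 2.

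**Figure D3:**
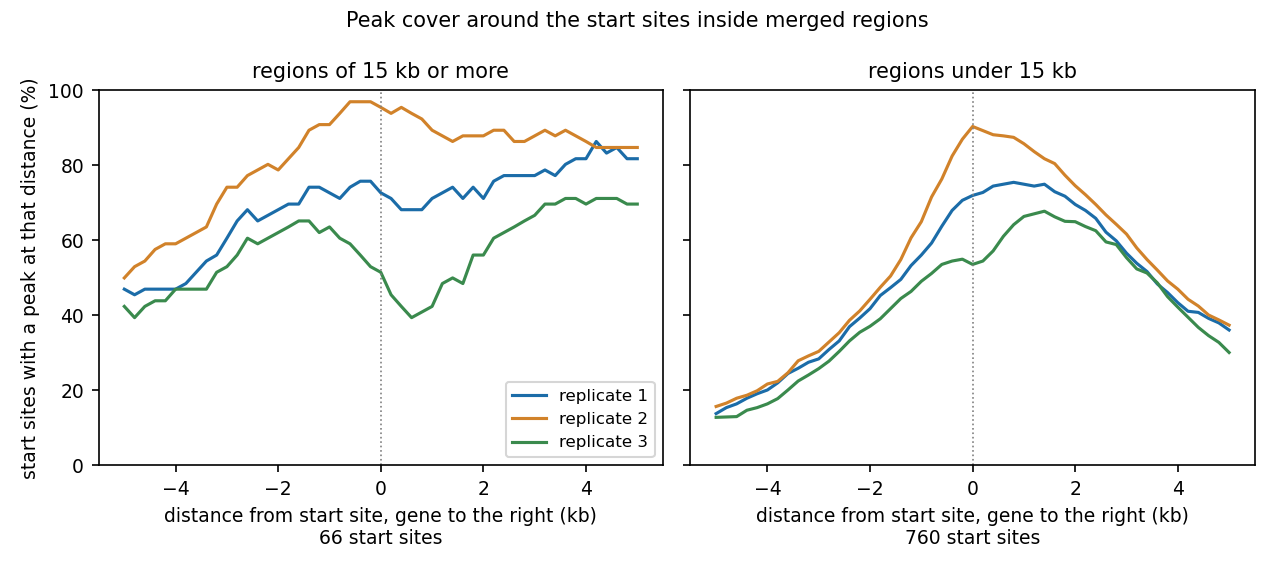
Share of the start sites inside merged regions that had a peak at each distance, in kb with the gene to the right, for very wide regions (66 start sites) and for narrower regions (760 start sites). In the very wide regions, cover at the start itself was 72.7, 95.5 and 51.5% in replicates 1, 2 and 3, and in replicate 3 it was 42.4% at 1 kb and 69.7% at 5 kb into the gene.

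Between genes lay 38 regions. Of these, 6 had a protein-coding start less than 10 kb away, 13 had the nearest at 10 to 50 kb and 19 had it beyond 50 kb, 6 of them beyond 100 kb, and the median distance was 45.2 kb. In 20 of the 38 the start site of a noncoding or other gene lay inside. The 5 longest were nearest to the starts of Twist1 (24.2 kb long), Irs2 (24.2 kb), Rpusd4 (23.8 kb), 1700001O22Rik (21.8 kb) and Lrrc74a (21.3 kb). Irs2 encodes an adaptor of the insulin receptor, and its region lay 27.9 kb from the start with cover of 94.4, 97.2 and 79.0%. The nearest start need not belong to the gene that a region acts on, and no gene is assigned on these data.

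Some of the 38 lay near genes that had a region of their own. Msx1 had 25 kb over the gene and a further 15.7 kb at a distance of 66.9 kb from its start. Alx4, as above, had one at 16.3 kb, and Bmp7, a bone morphogenetic protein, had 20.7 kb over its start and 17.2 kb at 85.9 kb from it. Others were nearest to Dlk1 (1.45 kb from the start), a Notch-related ligand, to Spry4 (75.1 kb), an inhibitor of FGF signalling, and to Aldh1a3 (13.3 kb), which makes retinoic acid. Dlk1, Spry4 and Aldh1a3 were picked after their values were seen.

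Some very wide regions shared a gene. Of the 275 regions over gene bodies, 86 shared their gene with another, in 38 genes. Within 20 kb of another very wide region lay 55 of the 313 (17.6%), and within 100 kb lay 113 (36.1%). These shares were not counted for narrower regions. Some neighbours were set apart only by a short gap, such as chr2:35667370-35686290 and chr2:35686401-35704723 in Dab2ip. In Gse1 there were 4, from 23.1 to 55.2 kb, adding to 148 kb of a body of 353 kb, with 144, 143 and 93.5 kb covered in replicates 1, 2 and 3. Another 2 were assigned to Gm20388, a predicted readthrough gene of 4435 kb that contains Gse1, and 1 of these covered the Gse1 start.

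Prdm16, a zinc finger regulator of brown fat and craniofacial development, had 4 with 83.1, 80.6 and 63.0 kb covered. Zfhx3, a large zinc finger and homeodomain factor, had 3 over a body of 1019 kb. There were also 3 in each of Dab2ip, Nxn, Pdzrn3, Sipa1l2 and Zmiz1. Nxn encodes nucleoredoxin, an inhibitor of Wnt signalling, and its regions had 50.3, 50.8 and 47.9 kb covered. In Pdzrn3, a ubiquitin ligase of muscle and vessel development, replicate 3 covered the most, with 51.5 kb against 49.5 and 46.6 kb.

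Gene lists were then counted, all of them chosen with earlier results of these data known, so that the counts are a description. Facial mesenchyme genes had a very wide region over the body in 11 of 44 cases (25%, exact 95% interval 13.2 to 40.3), beside 1.31% of all protein-coding genes. The interval treats the genes as independent draws, which a chosen list is not, and serves only as a limit for the alternatives below. The median body of the list was 23.3 kb, a length class in which 0.859% of all genes had one. The 11 were Alx4, Foxp1, Lef1, Lhx6, Msx1, Nr2f1, Pax3, Prrx1, Prrx2, Six2 and Tfap2a. A region of any length in all 3 replicates was found over 33 of the 44 (75%), beside 14.0% of all protein-coding genes. The share was 15.9% with replicate 2 left out of the merging, and 13.6% at 20 kb or where every replicate had to cover 15 kb. It was 36.4% with peaks under 1 kb apart joined.

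The heights of these 11 were spread out. For Six2 the maximum stood at percentiles 97.7, 94.6 and 92.5, and for Prrx2 at 97.5, 97.2 and 90.5. Lhx6, a LIM homeobox factor of the jaw primordia, had 21.7 kb over its start with percentiles of 40.6, 49.4 and 27.3. Prrx1, the partner of Prrx2 in facial mesenchyme, had 15.5 kb with percentiles of 46.3, 17.7 and 75.4. Pax3, a paired-box factor of neural crest, had 2 regions, of 23.8 and 21.6 kb. The former covered the start, with 74.0, 66.8 and 83.7% of it covered and a maximum pileup of 49, 58 and 54. Tfap2a, the AP-2 factor of neural crest and ectoderm, had 23.8 kb with 81.7, 96.2 and 70.8% covered. Wide regions of this list were thus both tall and low.

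Lists of other tissues were counted in the same way. None of 22 surface ectoderm genes, 24 adult kidney genes, 16 posterior Hox genes, 11 erythroid genes, 15 sensory neuron genes or 11 glia and pigment genes had a very wide region. Beside 1.31% of all genes, a count of 0 in lists of this size is near the background. Of 14 endothelial genes, Ets1 and Erg had one (14.3%), and of 12 muscle genes, Pax7 (8.33%). Regions of any length in all 3 replicates lay over 31.8% of the surface ectoderm genes, 12.5% of the kidney genes and 0% of the posterior Hox and erythroid genes, beside the 14.0% of all genes. The kidney list was thus near the share of all genes. Every region counted had a peak in all 3 replicates, so peaks in replicates 2 and 3 alone were left out. The kidney count therefore cannot bear on the source name of replicates 2 and 3. The lists differ in gene length, from a median body of 3.5 kb for posterior Hox to 44.6 kb for endothelium, and their part in each count was not tested.

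**Figure D4:**
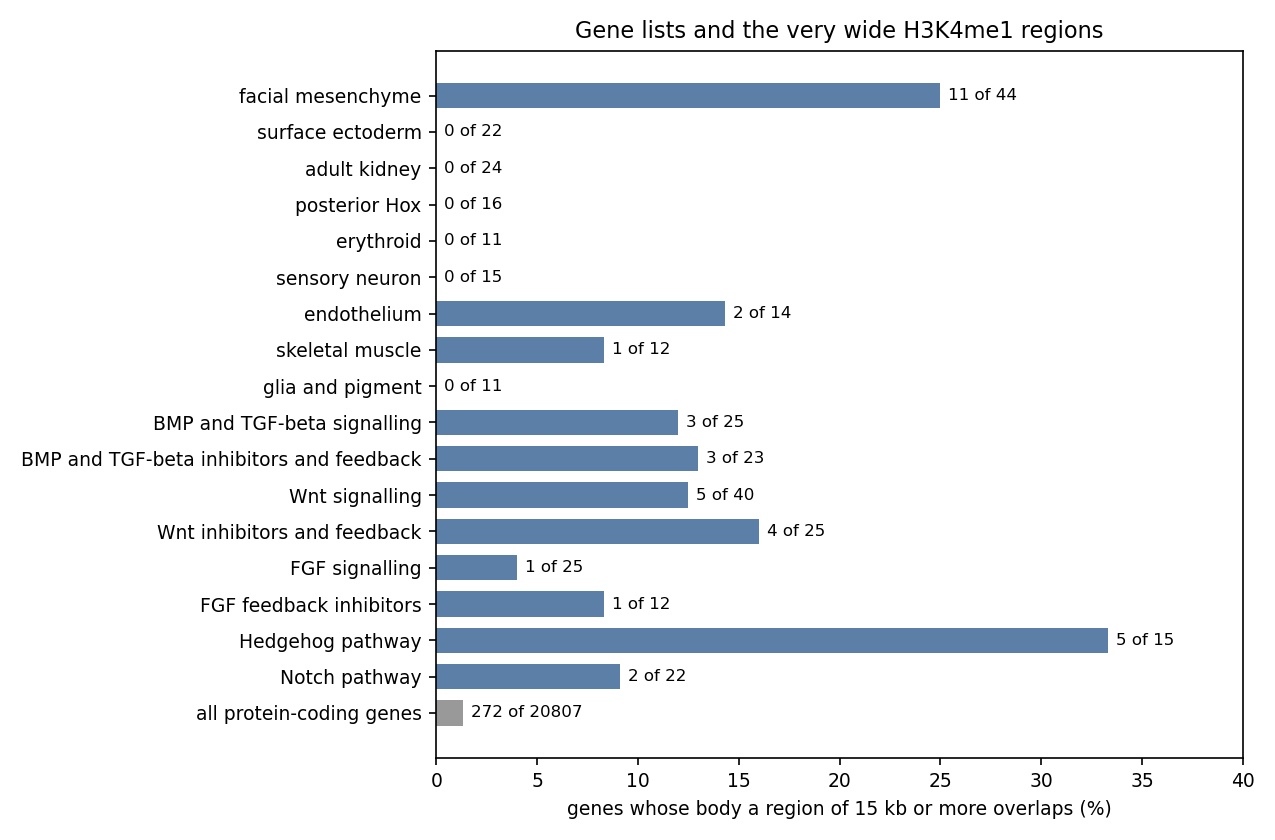
Share of the genes of each list whose body a very wide region overlaps, with the count beside each bar, and all 20807 protein-coding genes in grey at 1.31%. Facial mesenchyme stands at 25% and the Hedgehog pathway at 33.3%, and 6 tissue lists stand at 0.

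Signalling pathways were read by the roles of their genes. In the Hedgehog pathway 5 of 15 genes (33.3%) had a very wide region, beside 1.31% of all genes. Disp1 releases the ligand, Boc and Cdon are co-receptors, and Gli2 and Gli3 are the transcription factors. The region in Disp1 was 17.1 kb with 90.3, 75.5 and 98.9% covered, and that in Cdon 17.9 kb with 79.4, 57.7 and 98.7%. That in Gli3 was 18 kb with 82.0, 100 and 70.8%, and that in Gli2 15.1 kb with 70.7, 74.3 and 58.4%. The median body of the list was 65.3 kb, and 2.69% of all genes of 50 to 100 kb had one. None of the 5 covered a protein-coding start of the list.

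Each pathway count below stands beside 1.31% of all genes. By the median body of the list, it stands beside 0.859% for both Wnt lists, 2.69% for BMP and TGF-beta signalling and 0.314% for the others. Some genes with a very wide region were longer than this median. Notch1 and Notch2, at 58.8 and 137 kb, fall in length classes at 2.69 and 5.50%, while Id3, at 2.26 kb, falls in that at 0.314%. In Wnt signalling 5 of 40 genes (12.5%) had one. They were the ligand Wnt5a (19.5 kb), the receptors Fzd7 (15.3 kb, over the start) and Ror2 (26.1 kb), and the factors Tcf7l1 (31.7 kb) and Tcf7l2 (28.3 kb). Lef1, of the same factor family, is counted with facial mesenchyme, so that 3 of the 4 TCF/LEF genes held a very wide region. Of 25 Wnt inhibitors and feedback genes, 4 (16.0%) had one, namely Axin2 (16.4 kb), a negative regulator induced by the pathway, Nkd1 (15.7 kb), and the co-repressors Tle3 (33.3 kb) and Tle2, whose 19.2 kb region covered its start and also overlapped its neighbour Aes, with the 3 maxima between genes. In Axin2 the maxima of all 3 replicates lay 8.58 kb after the start.

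Among BMP and TGF-beta genes, 3 of 25 signalling genes (12%) and 3 of 23 inhibitors (13.0%) had one. Bmp7, the ligand, had 20.7 kb with a maximum pileup of 138, 140 and 151. Tgfbr3, the co-receptor betaglycan, had 2 regions of 21.7 and 17.1 kb, and Smad3, a transducer of TGF-beta, had 2 of 32.2 and 20.2 kb. Among the inhibitors, Smad7 had 35.7 kb and Smad6 34.4 kb, and Id3, a target that blocks basic helix-loop-helix factors, had 19.4 kb over its whole body of 2.26 kb. In Smad7 the cover was 93.3, 98.5 and 92.2%, and the maximum stood at percentiles 99.4, 99.5 and 99.7. The Smad family thus had 3 of 8 genes, of which 2 are its inhibitory members.

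The FGF list had 1 of 25 (4%), the receptor Fgfr2 (23.9 kb, with 92.3, 100 and 89.0% covered), in an annotated body of 2961 kb that is longer than the receptor gene proper through a distant start. FGF feedback had 1 of 12 (8.33%), Il17rd (24.7 kb over its start). The Notch pathway had 2 of 22 (9.09%), both receptors. In Notch1 the region was 25.7 kb with 100, 98.1 and 87.0% covered, and no ligand or target of the list had one.

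By gene family, 38 of 307 transcription factor genes in the families counted (12.4%) were overlapped, beside 1.31% of all genes, and 12 (3.91%) had their start covered, beside 0.317%. Runx genes had 2 of 3, nuclear factor I genes 2 of 4, and Bcl11 genes 2 of 2. These are families of long genes, with median bodies of 225, 223 and 94.6 kb. Of all genes, 5.46% of those over 200 kb and 2.69% of those of 50 to 100 kb had one. A region of any length in all 3 replicates lay over 100% of the genes of each of these families. Such a region lay over 14.0% of all protein-coding genes and 33.4% of those of 50 kb or more. Tead1, Ebf3, Tcf4 and Rara were other factors with a very wide region. Families at 0 were the Sox factors (18 genes), Hox clusters (39), Kruppel-like and Sp factors (25), Snai and Zeb (5) and Hes and Hey (9), which is near the background for families of this size. Outside the factors, 0 of 75 ribosomal protein genes, 0 of 49 keratins, 0 of 1087 olfactory receptors and 1 of 42 collagens, Col27a1, had one. Several of the families at 0 consist of short genes, with a median body of 5.18 kb for Sox, 3.49 kb for Hox and 3.37 kb for ribosomal proteins. Regions of any length lay over 5 of the Sox genes (27.8%) and 9 of the Kruppel-like and Sp genes (36.0%), beside 14.0% of all genes.

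Replicate 3 stood apart in base composition, in the very wide regions and in the others. The median GC content of the very wide regions was 49.8%, against 48.5, 47.4 and 46.9% in those of 10 to 15, 5 to 10 and under 5 kb. The share of the shared-region signal in each was compared between replicates. On the log2 scale the median ratio was -0.30 for replicate 3 over replicate 2 and 0.01 for replicate 1 over replicate 2. In the 79 members lowest in GC, at a median of 45%, the former was 0.43, and in the 78 highest, at 54.2%, it was -0.91. Over the 313 regions, Spearman's correlation between GC content and this ratio was -0.929. It was -0.911, -0.858 and -0.764 in regions of 10 to 15, 5 to 10 and under 5 kb, so that the relation was present in every length class. These are descriptions over regions of the same libraries.

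The share of bases covered followed the same order. Replicate 3 covered 91.2% of the bases of the members lowest in GC and 65.9% of those highest, while replicate 2 covered 86.4 and 96.4% and replicate 1 covered 87.1 and 92.4%. Unbroken regions in replicate 3 were 67.1% of the members lowest in GC and 33.3% of those highest. They were 39.7 and 25.6% of the members between, in order of GC, so that the share did not fall throughout. In replicate 2 they were 50.6% of the lowest and 76.9% of the highest. Between these ends the order was opposite in these 2 replicates. The 5 regions that replicate 3 covered least were those of Gata2, Cd82, Nectin1, Ackr3 and Cdc42ep4. Their GC content was 55.8, 53.5, 53.0, 49.0 and 52.8%, so that the region near Ackr3 lay below the median of the very wide regions. Zfhx4, which it covered whole, had 36.6%. The part of GC content in the breaks and in the members just past 15 kb was not tested.

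**Figure D5:**
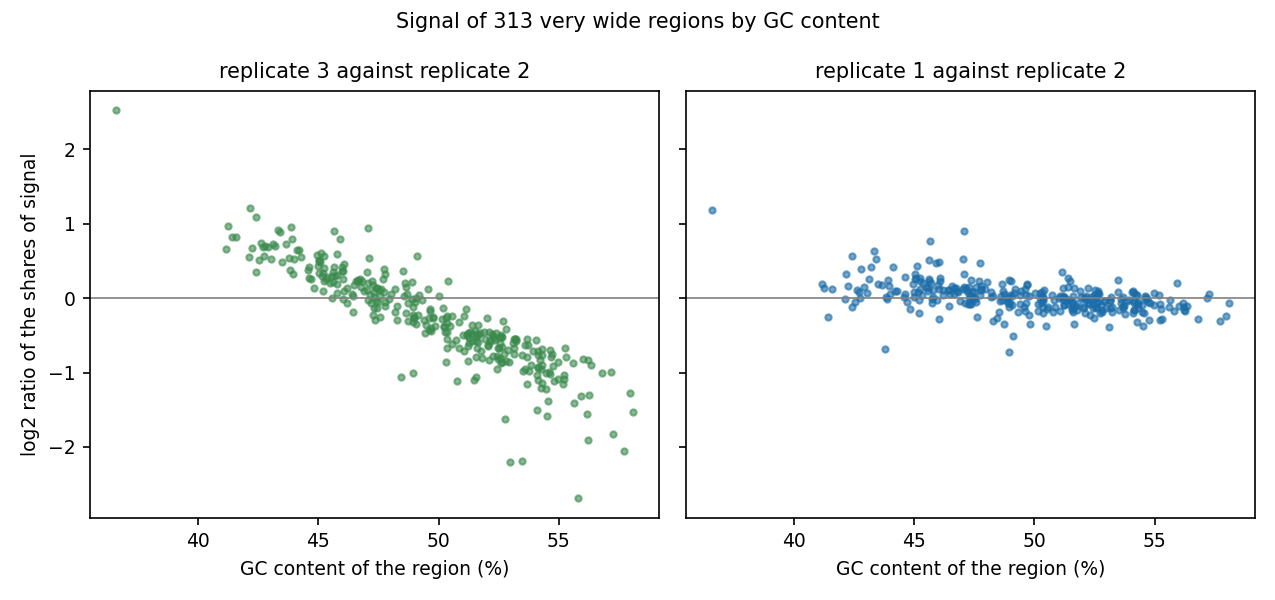
Log2 ratio of the share of signal in each of the 313 very wide regions, for replicate 3 against 2 and replicate 1 against 2, by the GC content of the region in percent. For replicate 3 the median ratio is 0.43 in the 79 regions lowest in GC and -0.91 in the 78 highest, and for replicate 1 it is 0.13 and -0.08.

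The places of highest pileup were often near each other. In 37.1% of the very wide regions the maxima of the 3 replicates lay within 500 bp, and the median span of the 3 was 1461 bp. The corresponding shares were 40.5, 42.8 and 56.7% in regions of 10 to 15, 5 to 10 and under 5 kb, which leave less room to differ. Over the 313 regions, Spearman's correlation of mean pileup was 0.940 between replicates 1 and 2, 0.753 between 1 and 3 and 0.683 between 2 and 3, as a description over regions of the same libraries.

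Motifs were searched on both strands in the 301 bases around each maximum. The AP-2 motif GCCNNNGGC was in 12.7 ± 2.42% of the windows of very wide regions and in 11.9 ± 1.33% of those of narrower regions (SD, n = 3). The AP-1 motif TGANTCA was in 9.69 ± 1.61 and 8.98 ± 0.277%, the TCF/LEF motif ATCAAAG in 3.51 ± 0.845 and 4.14 ± 0.453%, and the homeodomain motif TAATTA in 3.41 ± 1.21 and 4.89 ± 1.33% (SD, n = 3). For AP-2, AP-1 and TCF/LEF the means differed by less than the SD over replicates in the very wide regions, and for the homeodomain motif by more. Base composition differs between the classes, and its part in these shares was not tested.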

How the data were processed

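Whisker pads of mouse embryos at embryonic day 12 were profiled by CUT&Tag for H3K4me1 in 3 replicates. Per the submitters' processing notes, Bowtie2 2.3, SAMtools 0.1.19, bedtools and SEACR 1.3 were used. The authors aligned reads to mm10 and called peaks in each replicate by SEACR in stringent mode, keeping the top 1% of signal blocks without the IgG libraries. The deposited signal of a peak is its total and its maximum fragment pileup, in whole numbers that were not scaled to depth. The treatment of duplicate reads is not given in the sources used here, and the files hold no read totals. The study's methods give 1 target depth for all libraries, and the depth reached by each was not used here, so that pileups were compared between replicates only as ranks or as shares of signal. Nothing in the labels says whether the 3 replicates came from separate litters, and the SD measures the spread between these samples.

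Peaks were merged where they shared at least 1 bp, and genes, start sites and exons were taken from GENCODE vM21 on GRCm38. The gene of a region was the protein-coding gene sharing the most bases with it, and otherwise the one with the nearest start site. CpG islands were built from 200-bp windows with at least 50% GC and an observed to expected ratio of at least 0.6. Overlapping windows were joined and stretches of at least 500 bp were kept, without applying these limits again to the whole stretch. Sequences were read from GRCm38, and promoters from RefSeq. A gene was named where its region was among the 10 widest, the 5 highest or 5 lowest in mean percentile of maximum pileup, the 3 just inside or just outside 15 kb, the leading 10 with 1 peak of 15 kb in each replicate, the 5 longest between genes, the 5 most unequal in cover, or in a gene with at least 2 regions or on a list. The 17 gene lists and 29 families, and the regions themselves, were chosen with earlier results of these data known. Of 365 list genes, 9 had no protein-coding entry on chromosomes 1 to 19. Scripts ran in Python 3.11.15 with numpy 2.4.6, pandas 2.3.3, scipy 1.17.1 and matplotlib 3.10.9, and the merging was tested on simulated peaks. Alternatives changed the length threshold, the joining of peaks, the peaks used, the definition of start sites and the replicates merged.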

Additional observations from a re-analysis of the deposited data

How the results depend on the processing

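Of 85 alternative values of the 11 main results, 51 stayed within their limit and 34 moved. The limit was 1 SD over replicates, the 95% interval of a share, or 1.5 times a count. Of 58 values of single items 46 stayed and 12 moved. A reversal was a change of sign, which only the log2 ratio of replicate 3 over replicate 2 could show, and 0 were seen. The number of regions was 119 at 20 kb, 1012 at 10 kb, and 135 with 15 kb covered in each replicate. GC content in this section is the median over the bases that each replicate covered, averaged over replicates. Its main value was 50.1%, beside the 49.8% of whole merged regions given above. At 20 kb the median maximum percentile was 95.6, the mean-pileup percentile 88.4, the share of signal 7.85%, the GC content 50.9% and the share with the maximum near a start 0%. At 15 kb the last share was 2.77% within 2.5 kb of a start. With 15 kb covered in each replicate the percentiles were 96.0 and 89.8, the share of signal 8.75% and the GC content 49.4%, and breaks held 8.29 start sites per Mb. Counting every transcript start in the regions as defined, breaks held 94.4 per Mb and covered bases 70.7. With peaks joined over 1 kb, the mean-pileup percentile was 81.5, the share of signal 18.1% and the GC content 49.6%. With the strongest 10000 peaks the percentiles were 89.9 and 80.8, and ranked among all peaks the maximum was at 94.9. Regions covering a start were 41.9% with any gene and 51.1% with any transcript. The causes were not tested. Leaving out each replicate in turn gave 48.9 to 51.0% GC, 59.3 to 63.6% unbroken regions, maximum percentiles of 92.9 to 95.1, mean-pileup percentiles of 85.9 to 90.5, 11.8 to 20% covering a start, 10.6 to 14.0% of the signal and 9.02 to 24.2 start sites per Mb of breaks. The ratio of replicate 3 to replicate 2 has no value without either. No paired analysis was possible because only 1 antibody's samples were analysed here, and the IgG samples carrying matching numbers were not. The depth of each replicate was not in the files, so that shallow cover and absent mark could not be told apart in a break.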
